A study of Homo sapiens with 4 samples.

Results

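The BCL2 family apoptosis regulators were followed in the established human cell line Kasumi-1, which was derived from an acute myeloid leukemia (AML) and carries the RUNX1-RUNX1T1 fusion. The members were the rows of 10 named genes, of 18567 genes in the table, found by gene symbol. They comprise 4 survival members (BCL2, BCL2L1, MCL1 and BCL2A1) and 6 death members, of which BAX and BAK1 are effectors and BID, BCL2L11, PMAIP1 and BBC3 are BH3-only proteins. RNA was sequenced from 2 NC samples and 2 sh-ANP32B samples of this single line. Per the labels the NC samples were untreated and carried no shRNA, while the published methods name a hairpin control, sh-NC, and this difference could not be resolved. The sh-ANP32B samples carried an shRNA against ANP32B, delivered by lentivirus with puromycin selection, and which hairpin each of them held is not stated in the labels. The published methods speak of independent repeats for experiments in general, in a number larger than the 2 samples per group here, and the labels do not say whether these replicates were separate cultures. The p-values below set the group differences against the spread between these samples, which may be technical. In the limma test used here, the spread of each gene is moderated toward that of genes of similar abundance.

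Proteins of this family decide whether the outer membrane of the mitochondrion stays intact. BAX and BAK1 can assemble into pores that release cytochrome c, the survival members bind and restrain them, and the BH3-only proteins carry stress signals by occupying the survival members or by activating the effectors directly. AML cells are known to lean on BCL2 and MCL1, and the drug venetoclax acts by occupying BCL2. Transcript levels do not report protein levels, which in this family are also set by protein turnover, above all for MCL1.

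The deposited values are TPM, a transcript abundance scaled for transcript length and for the library total, which allows levels of different genes to be set side by side within a sample. TPM keeps no sequencing depth, so the counting error behind a value is unknown. The samples held between 15973 and 16540 genes at 1 TPM or more, and mitochondrial transcripts made up 12.9% and 13.1% of the signal in NC and 11.4% and 8.43% in sh-ANP32B, so that this share was lower in both sh-ANP32B samples. ANP32B fell to 12.0% of its NC level (388 ± 5.80 against 46.5 ± 7.53 TPM, SD, n = 2 in each group, limma adjusted p 0.00516). Of the 6 myeloid markers analysed, RUNX1T1 (17.6 and 15.6 against 31.2 and 26.8 TPM), ANPEP (means of 84.7 and 129.4 TPM) and PTPRC (means of 114.7 and 174.9 TPM) lay higher in sh-ANP32B and passed the criterion of the study given below, with limma adjusted p of 0.0632, 0.0581 and 0.115. CD33 had 68.3 and 58.5 TPM in NC against 69.1 and 70.1 TPM in sh-ANP32B. RUNX1 had 124.4 and 120.5 TPM in NC against 129.4 and 142.6 TPM in sh-ANP32B. KIT, which this line is known to express, had only 1.55 and 2.31 TPM in NC against 3.41 and 2.76 TPM in sh-ANP32B. In each of the 6 markers both sh-ANP32B samples lay above both NC samples, as in 33.2% of all genes tested. CD34 and MPO were not analysed here. Of the 4 T cell markers only CD2 was analysed, and it had 1.65 and 1.57 TPM in the NC samples against 9.48 and 9.25 TPM after knockdown. KLF1 of the erythroid list lay between 0.233 and 2.24 TPM, PDGFRB of the fibroblast list lay between 0.786 and 1.56 TPM, and no epithelial marker was analysed. The part of these markers and of the mitochondrial share in the differences given below was not tested.

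Knockdown of ANP32B was compared with NC to see how the survival and death members of the family stood in each group. BCL2 was 2.14-fold lower, BBC3 was 2.39-fold higher and BCL2A1 was 1.92-fold higher in the mean TPM of sh-ANP32B, and the other 7 members differed by at most 1.303-fold in either direction. No member passed limma at an adjusted p under 0.05 (0 of 10), where 3.32% of the 16817 genes tested did. At an unadjusted p under 0.05, 5 of 10 members passed against 23.8% of all genes. With an absolute log2 fold change over 0.5 required as well, which is the criterion of the study, 3 of 10 members passed against 18.6% of all genes. The study set these cutoffs on DESeq2 results. Here and below they were set on limma results from TPM values, so the counts are not those of the study. After a correction for GC content, 5 of 10 members had an adjusted p under 0.05, against 18.0% of genes, and with the filter set to 1 TPM in all 4 samples 1 of 10 did, against 5.61%. In bulk RNA a smaller number of cells that express a gene and less RNA per cell cannot be told apart.

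**Figure D1:**
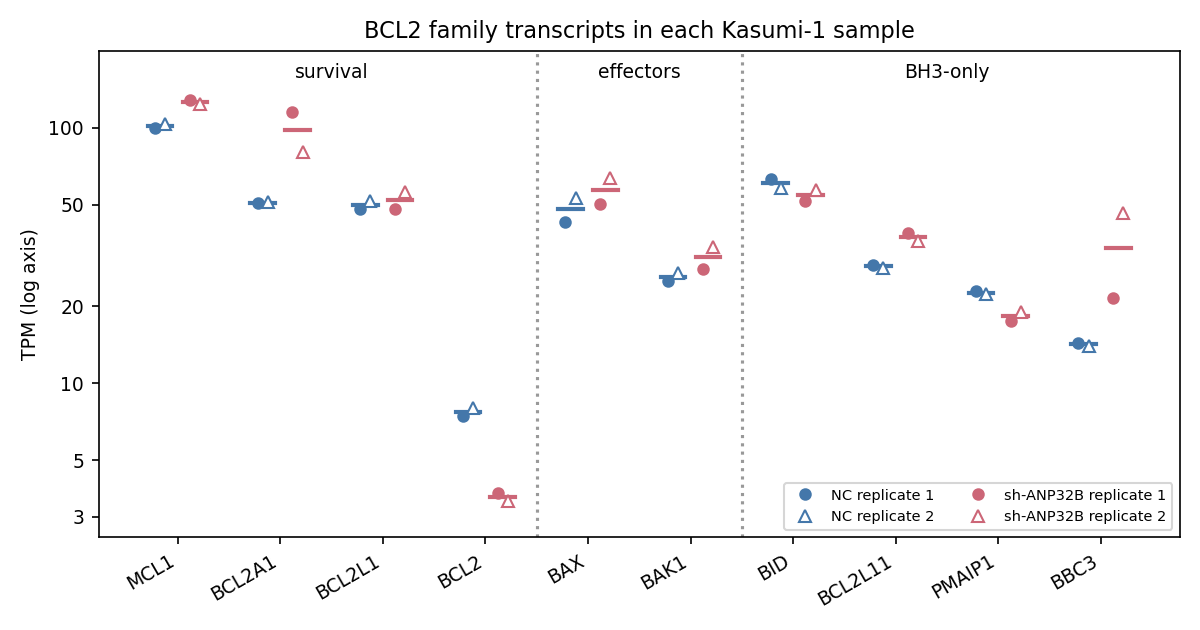
TPM of each member (log axis) in the 2 NC samples (blue) and the 2 sh-ANP32B samples (red), with replicate 1 as filled circles, replicate 2 as open triangles and the group mean as a bar. BCL2 lies lowest in both groups, with group means of 7.71 and 3.60 TPM, and BBC3 has the widest gap between sh-ANP32B replicates.

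The groups did not overlap in 8 of 10 members, against 54.6% of all genes tested. In 5 of these both sh-ANP32B samples lay above both NC samples (33.2% of all genes), and in 3 both lay below (21.4% of all genes). BCL2L1 and BAX were the members whose groups overlapped, and BAK1 joined them under median-of-ratios and upper-quartile scaling. The median log2 fold change over the members was 0.24, beside 0.083 over all genes tested. It was above 0 in 7 members and below in 3, beside 9741 above and 7076 below of the 16817 genes tested.

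BCL2, the founding survival member, was the least abundant of the 10 genes in both groups. NC replicates 1 and 2 had 7.45 and 7.98 TPM, whereas sh-ANP32B replicates 1 and 2 had 3.73 and 3.47 TPM. Both sh-ANP32B samples lay below both NC samples, and the replicates of each group were close together. Its log2 fold change of log2(TPM + 1), a scale that shrinks differences of genes with few TPM, was -0.92 (SE 0.223, 95% interval -1.45 to -0.39, limma p 0.00482, adjusted p 0.0736). After GC correction the limma adjusted p was 0.0257 at a log2 fold change of -0.86. Over the 13 alternatives that kept all 4 samples, the limma adjusted p of BCL2 was under 0.05 in 3. It reached 0.114 without the abundance trend. At its NC level BCL2 stood above 38.3% of the genes tested, and at its sh-ANP32B level above 23.8%. The gene (ENSG00000171791) spans 63123346 to 63320128 of chromosome 18 (hg38, minus strand).

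The study lists quantitative PCR primers for BCL2 and BAX. It reported lower BCL2 RNA by quantitative PCR and lower protein by western blot after the knockdown in this line. Those measurements are separate from the values here. The primers are shown because they mark the stretch of each transcript that such an assay reads, whereas a TPM value draws on reads from the whole gene. They are given 5′ to 3′, with no base singled out.
BCL2 forward: ggtggggtcatgtgtgtgg
BCL2 reverse: cggttcaggtactcagtcatcc
BAX forward: cccgagaggtctttttccgag
BAX reverse: ccagcccatgatggttctgat
On hg38 with the GENCODE annotation, the BCL2 primers match coding exon 2 of the canonical transcript, at chr18:63318189-63318207 and chr18:63318119-63318140, and both occur in 6 of 9 annotated BCL2 transcripts with a product of 89 bases. The BAX primers match coding sequence of exon 4, at chr19:48956227-48956247, and exon 5, at chr19:48960837-48960857. Both occur in 10 of 12 annotated BAX transcripts, with products between 155 and 253 bases.

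MCL1, a survival member that holds BAK1 and the BH3-only proteins in check, was the most abundant member in every sample. It had 99.97 and 103.7 TPM in the NC samples against 128.5 and 123.4 TPM after knockdown. Both sh-ANP32B samples lay above both NC samples, by 1.24-fold in the mean. This gave a log2 fold change of 0.30 (SE 0.125, 95% interval 0.0059 to 0.60, limma adjusted p 0.204), and after GC correction it was 0.37 with an adjusted p of 0.0258. Of the 13 alternatives with all 4 samples, 1 put the limma adjusted p of MCL1 under 0.05. It reached 0.442 with samples paired by replicate number. MCL1 (ENSG00000143384, chromosome 1, 150560895 to 150579738, minus strand) overlaps 43 bases of ADAMTSL4 on the opposite strand. It also overlaps 1221 bases of ADAMTSL4-AS1, a noncoding gene on its own strand. ADAMTSL4 rose from 98.6 ± 5.63 to 160.2 ± 4.95 TPM (SD, n = 2 each, limma adjusted p 0.0444), and no source used here says whether strand entered the counting.

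BCL2A1, a short-lived survival member that is known as an NF-kB target in blood cells, differed more than any other survival member in the upward direction. It had 50.7 and 51.0 TPM in the NC samples against 115.4 and 80.2 TPM after knockdown. The NC replicates were nearly equal, while the sh-ANP32B replicates stood apart from each other and both lay above NC. Its log2 fold change was 0.91 (SE 0.192, 95% interval 0.45 to 1.36, limma adjusted p 0.0572). It was 0.65 without sh-ANP32B replicate 1 and 1.17 without sh-ANP32B replicate 2. The limma adjusted p was 0.00737 after GC correction and 0.0434 with the stricter filter of 1 TPM in all 4 samples. Over the 13 alternatives that kept all 4 samples, this p was under 0.05 in 5 and reached 0.141 without the abundance trend. BCL2A1 (ENSG00000140379) lies on chromosome 15 from 79960892 to 79971196 on the minus strand.

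BCL2L1, which encodes the survival protein BCL-XL, had 48.0 and 51.8 TPM in the NC samples against 47.8 and 55.9 TPM after knockdown. The groups overlapped. Its log2 fold change was 0.051 (SE 0.151, 95% interval -0.31 to 0.41, limma adjusted p 0.880), and its sign turned under median-of-ratios scaling, upper-quartile scaling, quantile normalization and GC correction. This interval holds neither the value of BCL2 nor that of BCL2A1.

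Of the effectors, BAX had 42.8 and 53.3 TPM in the NC samples against 50.4 and 63.4 TPM after knockdown, with overlapping groups. BAK1 had 25.1 and 27.0 TPM in the NC samples against 28.1 and 34.01 TPM after knockdown, with both sh-ANP32B samples above both NC samples. Both effectors had a log2 fold change of 0.24, with a 95% interval from -0.20 to 0.67 for BAX (SE 0.182, limma adjusted p 0.476) and from -0.16 to 0.64 for BAK1 (SE 0.168, limma adjusted p 0.438). Neither passed an adjusted p of 0.05 in any of the 13 alternatives that kept all 4 samples, nor with a replicate left out. The log2 fold change of BAX was 0.076 without sh-ANP32B replicate 2, 0.084 without NC replicate 1, 0.39 without NC replicate 2 and 0.40 without sh-ANP32B replicate 1. That of BAK1 was 0.10 without sh-ANP32B replicate 2 and 0.37 without sh-ANP32B replicate 1. BAK1 shares 7747 bases with GGNBP1, a pseudogene on the opposite strand. Further members have overlapping genes too. BCL2L1 overlaps 30610 bases of BCL2L1-AS1 and 1903 bases of ABALON, both noncoding genes on the opposite strand. BCL2 overlaps 207 bases of a noncoding gene on its own strand and 547 bases of another on the opposite strand. BBC3 and BID overlap microRNA genes.

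BBC3, which encodes PUMA, a BH3-only protein that binds the survival members, had the largest log2 fold change of the 10 members. It had 14.4 and 14.0 TPM in the NC samples against 21.5 and 46.3 TPM after knockdown. Both sh-ANP32B samples lay above NC, and they differed from each other by 2.16-fold. Its log2 fold change was 1.10 (SE 0.334, 95% interval 0.30 to 1.90, limma adjusted p 0.115), and it was 1.64 without sh-ANP32B replicate 1 and 0.56 without sh-ANP32B replicate 2. Replicate 2 exceeded replicate 1 by more on the log2 scale than it did in 97.8% of the genes tested. After GC correction the log2 fold change was 0.88, with a limma adjusted p of 0.0248. Over the 13 alternatives that kept all 4 samples, this p was under 0.05 in 4 and reached 0.195 without the abundance trend. BBC3 (ENSG00000105327) lies on chromosome 19 from 47220822 to 47232766 on the minus strand.

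BCL2L11, which encodes BIM, a BH3-only protein that binds all survival members and can activate BAX, had 29.1 and 28.3 TPM in the NC samples against 38.8 and 35.9 TPM after knockdown. Both sh-ANP32B samples lay above NC, by 1.303-fold in the mean. The fitted log2 fold change was 0.37 (SE 0.148, 95% interval 0.016 to 0.72, limma adjusted p 0.196), with an adjusted p of 0.0288 after GC correction. Of the 13 alternatives with all 4 samples, 1 put the limma adjusted p of BCL2L11 under 0.05. It reached 0.390 with samples paired by replicate number. The whole of BCL2L11 lies inside MIR4435-2HG, a noncoding gene on the opposite strand with 71.7 ± 4.03 against 61.1 ± 6.72 TPM (SD, n = 2 in each group, limma adjusted p 0.390), so reads of the pair may not have been told apart.

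PMAIP1, which encodes NOXA, the BH3-only protein that binds MCL1 and marks it for breakdown, lay lower in both sh-ANP32B samples. It had 22.9 and 22.2 TPM in the NC samples against 17.6 and 18.9 TPM after knockdown, with a log2 fold change of -0.29 (95% interval -0.68 to 0.092, limma adjusted p 0.325). BID, which links death receptors to the mitochondrion once caspase-8 has cut it, had 63.2 and 58.0 TPM in the NC samples against 51.5 and 57.2 TPM after knockdown. Both sh-ANP32B samples of BID lay below both NC samples, but the nearest samples of the groups were less than 1 TPM apart. The log2 fold change of BID was -0.15 (95% interval -0.50 to 0.19, limma adjusted p 0.564). It was -0.080 without sh-ANP32B replicate 1, -0.094 without NC replicate 1 and -0.24 with median-of-ratios scaling. Of the 4 BH3-only members, BBC3 and BCL2L11 thus lay above NC in both sh-ANP32B samples, as 33.2% of all genes did, and PMAIP1 and BID lay below, as 21.4% did.

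**Figure D2:**
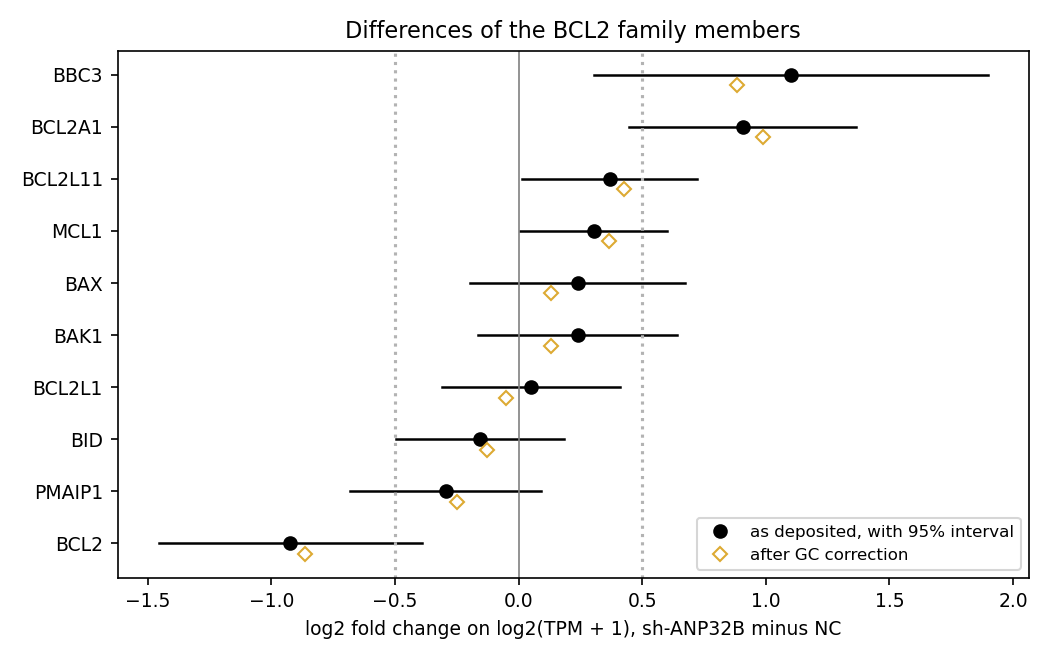
Log2 fold change of each member on the log2(TPM + 1) scale, sh-ANP32B minus NC, with its 95% interval from limma (black, 4 samples) and the value after GC correction (open diamonds). Dotted lines mark 0.5 in each direction: BCL2 at -0.92 lies below the lower line, and BCL2A1 at 0.91 and BBC3 at 1.10 lie above the upper line.

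In NC the order of the levels was MCL1, BID, BCL2A1, BCL2L1, BAX, BCL2L11, BAK1, PMAIP1, BBC3 and BCL2. The replicate ranges of BCL2A1, BCL2L1 and BAX overlapped from one to the next, and no other neighbours overlapped. In sh-ANP32B the order was MCL1, BCL2A1, BAX, BID, BCL2L1, BCL2L11, BBC3, BAK1, PMAIP1 and BCL2. There the ranges of BAX, BID and BCL2L1 overlapped from one to the next, as did those of BCL2L11, BBC3 and BAK1. The places of MCL1 at the top and of BCL2 at the bottom were shared by both orders. The remaining members are at 31664452 to 31723989 of chromosome 20 (BCL2L1, ENSG00000171552, minus strand), 111119378 to 111168444 of chromosome 2 (BCL2L11, ENSG00000153094, plus strand) and 48954815 to 48961798 of chromosome 19 (BAX, ENSG00000087088, plus strand). BAK1 (ENSG00000030110) spans 33572547 to 33580293 of chromosome 6 and BID (ENSG00000015475) spans 17734138 to 17774770 of chromosome 22, both on the minus strand, and PMAIP1 (ENSG00000141682) spans 59899996 to 59904305 of chromosome 18 on the plus strand.

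The balance of survival and death members was described by summed TPM. The 4 survival members summed to 206 and 215 TPM in NC and to 295 and 263 TPM in sh-ANP32B. The 6 death members summed to 197 and 203 TPM in NC and to 208 and 256 TPM in sh-ANP32B. The survival sum was larger in each sh-ANP32B sample than in each NC sample, as deposited and under the 4 other scalings tried after seeing the data. The death sum was larger only as deposited and when mitochondrial genes were left out. With median-of-ratios scaling the death sums were 204.1 and 206.4 in NC and 198.6 and 248.9 in sh-ANP32B, and the groups overlapped, as they did with upper-quartile scaling and quantile normalization.

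The ratio of the survival sum to the death sum, in which a factor common to all genes of a sample cancels, was 1.04 and 1.06 in NC, and 1.42 and 1.03 in sh-ANP32B replicates 1 and 2. The groups overlapped, with sh-ANP32B replicate 2 just below NC and replicate 1 above. The mean log2 ratio was 0.072 ± 0.0135 in NC and 0.27 ± 0.330 in sh-ANP32B (SD, n = 2 each), a difference of 0.20. This difference was -0.031 without sh-ANP32B replicate 1, -0.018 when BCL2A1 was left out of the survival sum (a choice made after seeing the data), and -0.17 when the mean of log2(TPM + 1) over each class was used. It was 0.32 when BBC3 was left out of the death sum, also chosen after seeing the data, and the groups then did not overlap. It was 0.29 without MCL1, and 0.068 with BCL2L2 added to the survival sum and BAD, BMF and BIK to the death sum. The groups overlapped in both. No test was made of this score, and the smallest p that an exact two-sided permutation test allows for 2 against 2 samples is 0.333.

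**Figure D3:**
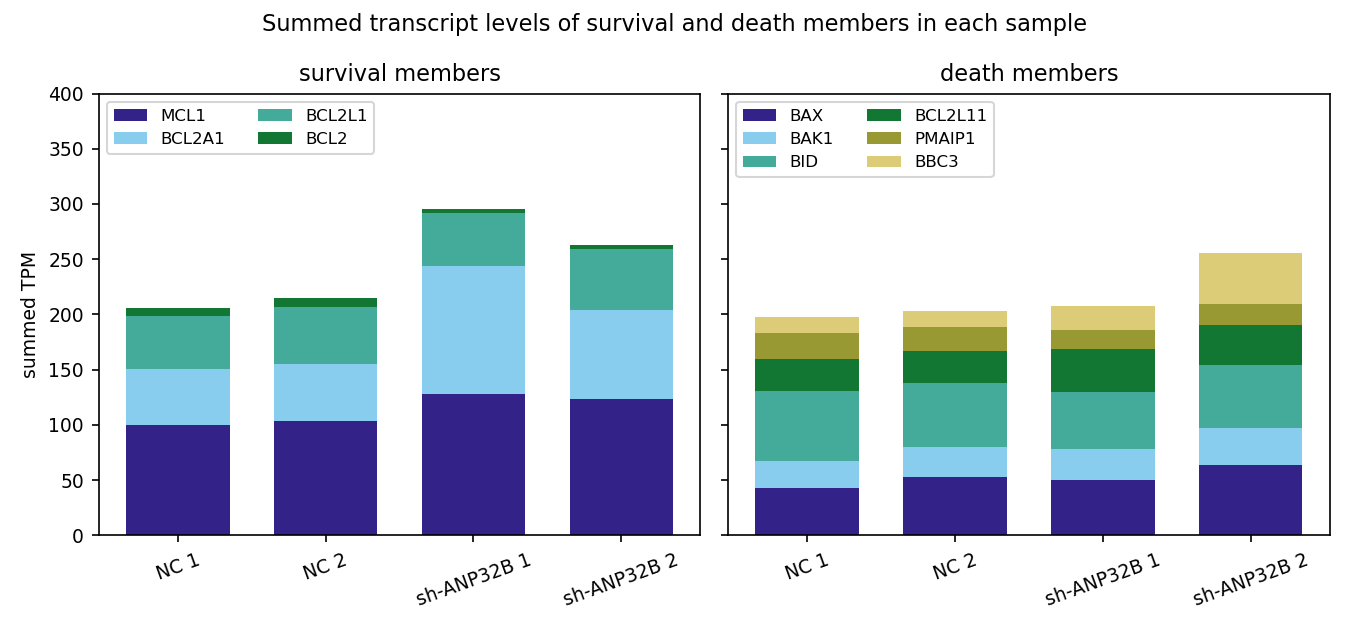
Summed TPM of the 4 survival members (left) and the 6 death members (right) in each of the 4 samples, with each bar divided by member and the axis starting at 0. Survival sums are 206 and 215 in NC and 295 and 263 in sh-ANP32B, BCL2A1 takes the largest part of the added survival signal, and BBC3 takes more of the death sum in sh-ANP32B replicate 2 than in replicate 1.

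The make-up of each sum was given as shares. BCL2 made up 3.61% and 3.72% of the survival sum in NC, and 1.26% and 1.32% in sh-ANP32B. BCL2A1 made up 24.6% and 23.8% in NC, and 39.1% and 30.5% in sh-ANP32B. BCL2L1 made up 23.3% and 24.2% in NC, and 16.2% and 21.3% in sh-ANP32B, so that of the survival members BCL2A1 alone had a larger share in both sh-ANP32B samples. MCL1 remained the largest part, with 48.5% and 48.3% in NC and 43.5% and 46.9% in sh-ANP32B. Of the death sum, BBC3 made up 7.29% and 6.90% in NC and 10.3% and 18.1% in sh-ANP32B, while BID made up 32.004% and 28.6% in NC and 24.8% and 22.4% in sh-ANP32B. The share of the death sum that came from BAX was 21.7% and 26.3% in NC and 24.2% and 24.8% in sh-ANP32B, so that the groups overlapped.

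Ratios between single members were described for 5 pairs. BCL2 transcripts per BAX transcript were 0.174 and 0.150 in NC and 0.074 and 0.0547 in sh-ANP32B. BCL2 per BCL2L11 was 0.256 and 0.282 in NC and 0.0960 and 0.0965 in sh-ANP32B. Both ratios lay lower in each sh-ANP32B sample than in each NC sample.

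MCL1 per BCL2 was 13.4 and 13.0 in NC and 34.5 and 35.6 in sh-ANP32B. MCL1 per PMAIP1, the survival protein against the BH3-only protein that targets it, was 4.36 and 4.66 in NC and 7.31 and 6.51 in sh-ANP32B. The ratio of BCL2L1 to BAX was 1.12 and 0.973 in NC and 0.950 and 0.883 in sh-ANP32B, with the nearest samples of the groups close together. The groups did not overlap in any of the 5 ratios, of which 3 hold BCL2, whose levels already did not overlap. The ratios are not independent of one another, the share of all gene pairs that separate in this way was not computed, and they are descriptions without a test. The scale is linear TPM throughout.

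The gaps between the sh-ANP32B replicates were set beside the GC content of the members. Over all genes with a GC value, the median difference of sh-ANP32B replicate 2 minus replicate 1 was -0.36 log2 units in the 1543 genes lowest in GC content and 0.44 in the 1543 highest. BBC3 had the highest GC content of the members, 69.7% over its longest transcript, and a gap of 1.07 log2 units between the sh-ANP32B replicates. BAX, BAK1 and BCL2L1, with GC contents of 58.9%, 58.8% and 58.2%, had gaps of 0.33, 0.27 and 0.22.

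BCL2A1, at 40.9% GC, had a gap of -0.52 in the opposite direction, whereas BCL2, at 45.6%, had a gap of only -0.082. PMAIP1, lowest in GC content at 36.7%, had a gap of 0.10. In NC the gap of BBC3 was -0.037 and that of BCL2A1 was 0.0091. The NC gap of BAX was 0.31, close to its sh-ANP32B gap, and those of BAK1 and BCL2L1 were 0.10 and 0.11. Over all genes with a GC value, the median NC gap was 0.098 in those lowest in GC content and -0.063 in those highest. After GC correction the gap of BBC3 between the sh-ANP32B replicates was 0.51 and that of BCL2A1 was -0.28, while that of PMAIP1 widened to 0.42. What part GC content had in the differences of BBC3 and BCL2A1 between the groups was not tested beyond this correction.

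**Figure D4:**
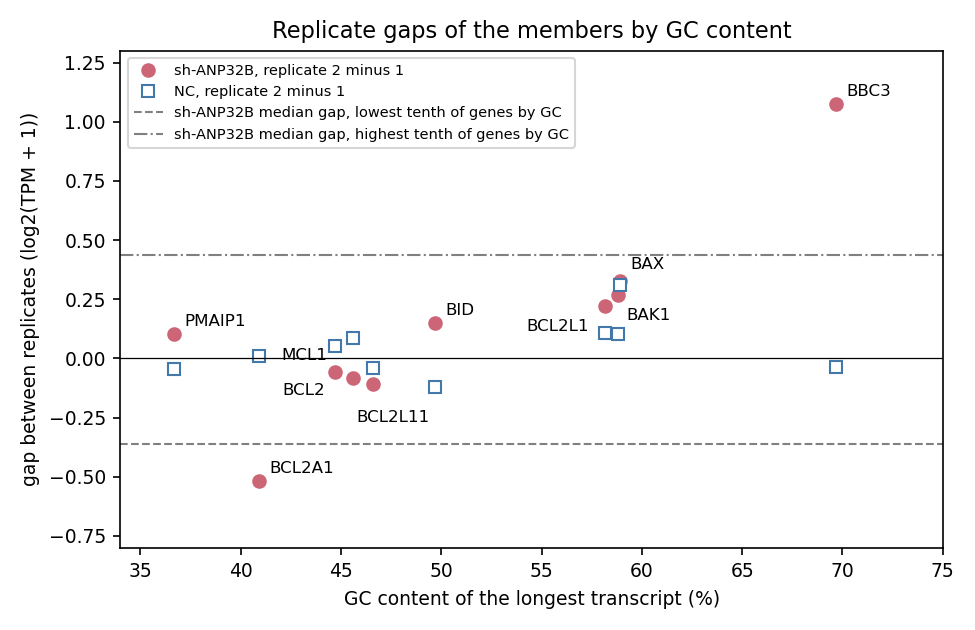
Difference between replicate 2 and replicate 1 on the log2(TPM + 1) scale for each member, against the GC content of its longest transcript in percent, for sh-ANP32B (filled circles, labelled) and NC (open squares). Horizontal lines give the median sh-ANP32B gap of the 1543 genes lowest (-0.36) and highest (0.44) in GC content. BBC3 lies above the upper line and BCL2A1 below the lower one.

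Promoter sequence is shown for BCL2A1 and BBC3, the members highest in fold change, and for BAX, to set their motifs beside these values. The windows searched were the 250 bases before each gene start in RefSeq (GRCh38.p14). Only bases outside the gene as GENCODE annotates it are printed, which leaves 250 for BCL2A1, 151 for BBC3 and 190 for BAX. None are left for BCL2, whose window lies within the annotated bounds of the gene. Sequences run 5′ to 3′ on the strand of the gene. Capitals mark matches, on either strand, to CACGTG (the E-box bound by MYC and MAX), GGGCGG (the GC box of SP1), TATAAA (the TATA box), TGACGTCA (the cyclic AMP response element) and GTAAACA (a FOXO site), and no matches overlapped in these windows.
BCL2A1: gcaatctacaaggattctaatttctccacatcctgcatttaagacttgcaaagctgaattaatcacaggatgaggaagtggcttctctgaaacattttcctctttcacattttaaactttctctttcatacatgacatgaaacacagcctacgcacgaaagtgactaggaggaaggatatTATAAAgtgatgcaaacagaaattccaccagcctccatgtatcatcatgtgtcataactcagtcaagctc
BBC3: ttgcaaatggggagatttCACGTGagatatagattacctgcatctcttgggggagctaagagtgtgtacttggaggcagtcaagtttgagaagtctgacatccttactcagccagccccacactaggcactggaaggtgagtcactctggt
BAX: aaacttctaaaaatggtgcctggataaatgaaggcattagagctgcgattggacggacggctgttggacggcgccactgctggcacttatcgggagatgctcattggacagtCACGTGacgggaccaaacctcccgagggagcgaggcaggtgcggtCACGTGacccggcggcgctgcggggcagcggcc
The printed stretches are chr15:79971197-79971446 and chr19:47232767-47232917, both on the minus strand, and chr19:48954625-48954814 on the plus strand.

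None of the 5 motifs occurred in the BCL2 window. That of BCL2A1 held 1 TATAAA, which begins 70 bases before the gene start, and TATAAA occurred in 10.7% of the 35116 windows of this length. BAX held CACGTG 4 times, at positions -138, -93, -45 and -14 from the gene start, of which the first pair falls in the printed stretch, and GGGCGG once. CACGTG occurred in 6.34% of all windows and at least 4 times in 5 of them. BBC3 held CACGTG once, 232 bases before the gene start. MYC, whose protein binds CACGTG, fell from 137 ± 9.13 to 59.98 ± 4.60 TPM (SD, n = 2 each, limma adjusted p 0.0261). BAX, with 4 such motifs, had a log2 fold change of 0.24, BBC3, with 1, had 1.10, and BID, with 1 in each of 2 of its 5 windows, had -0.15. A match to these letters is not evidence of binding, and no match says only that the letters are missing from this window.

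Of the other 6 members, 5 had windows in the RefSeq table, and MCL1 had none. GGGCGG was found 3 times for BCL2L11, 2 times for BAK1 and 4 times for PMAIP1, and in 42.6% of all windows. BCL2L11 also held GTAAACA once, a motif found in 2.98% of all windows. BID had 5 windows and BCL2L1 had 2, for their several gene starts. The BCL2L1 windows held TATAAA 2 and 0 times, and 721 of the 35116 windows held it at least 2 times. The BID windows held GGGCGG 4, 1, 0, 4 and 3 times. The upstream GC content ranged from 38.8% for BCL2A1 to 76.8% for BCL2L11 among members with 1 start, beside a median of 58.0% over all windows.

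The rest of the pathway was read from lists of named genes, whose counts stand beside 3.32% of all genes called (2.14% higher and 1.18% lower) and 18.6% past the criterion of the study (12.1% higher and 6.55% lower). Among 13 other BCL2 family genes 8 were tested, of which 1 was called higher and 0 lower, and 2 passed the criterion of the study, with a median log2 fold change of 0.19. The called gene was BMF, a BH3-only protein tied to the cytoskeleton until stress releases it. BMF rose from 35.4 and 33.1 TPM in NC to 56.2 and 68.6 TPM in sh-ANP32B (log2 fold change 0.84, SE 0.159, limma adjusted p 0.0463), and 8 of 13 alternatives with all 4 samples kept this call. Its adjusted p was 0.169 without NC replicate 1 and 0.272 without NC replicate 2. BCL2L12 had 71.8 and 52.5 TPM in the NC samples against 32.7 and 35.4 TPM after knockdown, and its log2 fold change was -0.83 (limma adjusted p 0.0616).

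Downstream of the pores, 0 of the 10 apoptosome and mitochondrial release genes were called, 2 passed the criterion of the study (18.6% of all genes), both lower (6.55%), and the median log2 fold change was -0.090. MTCH2, a mitochondrial receptor for BID, had 73.0 and 70.1 TPM in the NC samples against 51.2 and 44.04 TPM after knockdown (log2 fold change -0.58, limma adjusted p 0.0777). DIABLO, which releases caspases from their inhibitors, had 50.2 and 43.97 TPM in the NC samples against 22.9 and 35.6 TPM after knockdown (log2 fold change -0.70, limma adjusted p 0.129, and -0.39 without sh-ANP32B replicate 1). Of the 7 caspases 0 were called and 0 passed the criterion of the study, with a median of 0.11. CASP9, the caspase that the apoptosome activates, differed by 0.40 on the log2(TPM + 1) scale (limma adjusted p 0.314), and by 0.23 without NC replicate 2 and 0.26 without sh-ANP32B replicate 2.

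Of the 7 inhibitors of apoptosis proteins 6 were tested and 0 called, with a median of 0.23. BIRC5, the survivin gene, which is expressed in dividing cells, had 53.7 and 51.8 TPM in the NC samples against 38.5 and 42.6 TPM after knockdown (log2 fold change -0.37, limma adjusted p 0.182). XIAP had 10.6 and 9.75 TPM in the NC samples against 14.0 and 12.8 TPM after knockdown (log2 fold change 0.37, limma adjusted p 0.289).

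Of 10 death receptor pathway genes 8 were tested, 0 were called and 2 passed the criterion of the study (18.6% of all genes), both higher (12.1%), with a median of 0.22. They were TNFRSF10B, a receptor for the death ligand TRAIL, and CFLAR, which blocks caspase-8 at such receptors. TNFRSF10B had 85.2 and 86.6 TPM in the NC samples against 127.0 and 140.1 TPM after knockdown (log2 fold change 0.63, limma adjusted p 0.0544). CFLAR had 42.2 and 48.8 TPM in the NC samples against 70.4 and 69.5 TPM after knockdown (log2 fold change 0.61, limma adjusted p 0.0703). Both sh-ANP32B samples lay above both NC samples in each.

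Among 13 genes known to regulate the levels of the family, 0 were called and 2 passed the criterion of the study (18.6% of all genes), both lower (6.55%), with a median of -0.099. E2F1, a cell cycle factor known to act on BH3-only genes, had 43.2 and 44.3 TPM in the NC samples against 23.3 and 29.7 TPM after knockdown (log2 fold change -0.71, limma adjusted p 0.0732). TP73, a transcription factor that can act on death genes, had 3.54 and 5.13 TPM in the NC samples against 0.881 and 2.65 TPM after knockdown (log2 fold change -1.01, limma adjusted p 0.183). Its log2 fold change was -0.53 without sh-ANP32B replicate 1 and -1.49 without sh-ANP32B replicate 2.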

How the data were processed

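RNA was sequenced from 2 NC and 2 sh-ANP32B samples of Kasumi-1. The authors aligned the reads to hg38 with HISAT2 (2.0.5) and deposited TPM values for 18567 Ensembl gene IDs. The program that made these TPM values, its annotation, any filter and the use of strand were not given in the sources used here. GENCODE v44 supplied symbols for 16986 IDs, positions and GC content. The members and gene lists were chosen with earlier results of these data known. Genes that reached 1 TPM in 2 or more samples (16817, with all 10 members) were converted to log2(TPM + 1) and compared by limma (version 3.58.1 in R 4.3.3) with its prior variance following abundance, two-sided, with Benjamini-Hochberg adjustment over all genes tested. The same fit was also run on simulated data with known changes, built from the means and spreads of the real fit. Genes varied independently in it, so shifts shared by many genes, such as those with GC content, were not simulated. All members are named, together with ANP32B, MYC and, from each list, the genes with an adjusted p under 0.05 or, where fewer than 2, the 2 with the lowest p. A few of these genes and markers are not reported here. GC correction subtracted a loess fit on GC content in each sample, over the 15427 genes with a GC value. Other alternatives were scalings between samples, filters, a pseudocount of 0.1, variance models, replicate blocks and leaving out each replicate. Figures and sums were made with Python 3.11.15 (numpy 2.4.6, pandas 2.3.3, matplotlib 3.10.9).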

Additional observations from a re-analysis of the deposited data

How the results depend on the processing

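The count of members past a limma adjusted p of 0.05, which was 0, became 5 with GC correction and 1 with a filter of 1 TPM in all samples. It became 2 under the replicate block (8.76% of all genes), 3 under its crossed form (11.9%) and 3 under the block together with GC correction (15.2%). For all genes the same count, which was 559, became 2772 with GC correction, 1473 under the replicate block, 1995 under its crossed form, 2350 under the block together with GC correction, and 0 without the abundance trend, where 3337 genes still passed the criterion of the study. Scaling moved the direction of these calls: 360 were higher and 199 lower as reported, 236 and 284 with median-of-ratios scaling, 241 and 227 with upper-quartile scaling, and 244 and 234 with quantile normalization. The replicate numbers come from the sample titles alone. Samples that share a number did not move together (Pearson r -0.0925, Spearman rho -0.168 across 16817 genes), so the block pairs the samples by number only. Its fit kept 1 residual degree of freedom, so its calls rest mainly on the variance that limma pools over genes of similar abundance. With one replicate left out, the lone sample of a group being assumed to vary like the other group, the members called ranged from 0 to 5, all genes called from 273 to 4079 and genes past the criterion of the study from 1884 to 3953, with 3130 as reported. The number of members past that criterion was 3 under every alternative. The log2 fold change of BCL2L1, 0.051 as reported, was -0.036 with median-of-ratios scaling, -0.011 with upper-quartile scaling, -0.020 with quantile normalization, and -0.049 with GC correction, with and without the block, and between -0.060 and 0.16 with one replicate left out. It was past no threshold in any of them. The difference in the log2 ratio of survival to death sums, 0.20 as reported, was -0.17 as a mean log2(TPM + 1) difference and -0.018 without BCL2A1, and ranged from -0.031 to 0.44 with one replicate left out. The causes of these shifts were not tested. No other member changed direction under the alternatives run. The depth of the samples is unknown. Precision therefore rests on 2 samples per group and on the variance that limma pools over genes of similar abundance.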

Other observations

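Other apoptosis genes outside the 10 members had wide gaps between the sh-ANP32B replicates, and those below were chosen after their values were seen. BAD, a BH3-only gene with a GC content of 66.3%, had 25.0 and 24.5 TPM in the NC samples against 28.7 and 44.2 TPM after knockdown. ENDOG, a mitochondrial nuclease with 67.9% GC, had 25.6 and 26.8 TPM in the NC samples against 29.1 and 50.5 TPM after knockdown. TRADD, an adaptor of the TNF receptor with 63.7% GC, had 13.8 and 16.0 TPM in the NC samples against 14.5 and 24.9 TPM after knockdown. In these 3 genes replicate 2 was the higher sh-ANP32B sample, as it was for BBC3.

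TNFSF10, the TRAIL gene with 40.2% GC, had 8.73 and 9.33 TPM in the NC samples against 13.0 and 6.495 TPM after knockdown. CASP6, with 42.8% GC, had 19.4 and 22.3 TPM in the NC samples against 29.2 and 17.4 TPM after knockdown. In both genes the sh-ANP32B replicates lay on either side of NC, with replicate 1 the higher, as it was for BCL2A1. DIABLO, at 45.1% GC, went the other way, with 22.9 TPM in replicate 1 and 35.6 TPM in replicate 2. None of these genes had a limma adjusted p under 0.05, and at an unadjusted p under 0.05 only DIABLO of the 6 passed.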
